A study of Mus musculus with 9 samples.

Results

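Small nucleolar ribonucleoproteins (snoRNPs) are particles of a guide RNA and a fixed set of core proteins that modify ribosomal RNA. Their core protein genes were followed here in N1E-115, a mouse neuroblastoma cell line, on 9 arrays of total RNA. In 3 arrays the cells overexpressed mouse Tcof1, in 3 they were wildtype for Tcof1 and in 3 Tcof1 was knocked down, with the letters A, B and C in each group. The product of Tcof1, treacle, resides in the nucleolus and takes part in making ribosomal RNA. The sources used here do not say how Tcof1 was raised or lowered, nor whether the letters stand for separate cultures, so the p-values below reflect array-to-array spread that could be technical alone.

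The members were every probe set whose platform annotation gives exactly 1 gene symbol and that symbol is Nop56, Nop58, Fbl, Rrp9, Dkc1, Nop10, Gar1 or Nhp2. This rule found 11 probe sets of 7 genes, among 12393 genes with such a probe set and 22626 probe sets tested. Nop56, Fbl, Nop10 and Nhp2 had 2 probe sets each, and Nop58, Rrp9 and Gar1 had 1. Dkc1, the gene of the pseudouridine synthase dyskerin, was not analysed here. By mean intensity over all 9 arrays, overexpressing ones included, all 11 probe sets were brighter than the median probe set, at 175.2. They ran from the 65.5th percentile for Rrp9 to the 98.3rd for the brightest Nop10 probe set. The Rrp9 rank includes overexpressing arrays at 572 to 807, and its means were 179 in wildtype and 220 in knockdown arrays.

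snoRNPs come in 2 classes. Box C/D particles carry the methyltransferase fibrillarin (Fbl) on a scaffold of the related proteins Nop56 and Nop58 and methylate the ribose of target nucleotides. H/ACA particles carry dyskerin with Nop10, Gar1 and Nhp2 and turn uridine into pseudouridine, and the same proteins bind telomerase RNA. Rrp9 binds only the U3 box C/D RNA, which guides cleavage of the ribosomal RNA precursor rather than its methylation. Both classes are concentrated in the nucleolus, where treacle is found, and are in high demand in growing cells.

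The stretches upstream of 4 members are shown because Nop56 and Rrp9 gave the largest differences between groups, Gar1 the smallest, and Nhp2 the largest of the H/ACA genes. The sequences are from RefSeq, build GRCm38.p6, and end before the first annotated base of the gene. Matches to the CCAAT box (CCAAT on either strand) and to the ETS-type motif CCGGAAG (either strand) are in capitals, and the E-box CACGTG was searched in the same way. The Nop56 stretch is chr2:130274162-130274366 on the plus strand, the Rrp9 stretch chr9:106477059-106477308 on the plus strand, the Nhp2 stretch chr11:51619523-51619772 on the plus strand and the Gar1 stretch chr3:129831408-129831646 on the minus strand.
Nop56: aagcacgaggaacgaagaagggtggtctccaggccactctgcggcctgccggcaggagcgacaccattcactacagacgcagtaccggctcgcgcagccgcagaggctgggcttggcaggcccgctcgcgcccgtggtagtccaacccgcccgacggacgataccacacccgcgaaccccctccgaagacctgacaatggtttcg
Rrp9: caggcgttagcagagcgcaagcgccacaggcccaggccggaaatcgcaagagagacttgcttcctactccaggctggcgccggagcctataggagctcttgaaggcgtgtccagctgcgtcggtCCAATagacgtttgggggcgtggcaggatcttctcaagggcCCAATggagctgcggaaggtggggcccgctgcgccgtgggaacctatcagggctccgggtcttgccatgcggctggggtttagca
Nhp2: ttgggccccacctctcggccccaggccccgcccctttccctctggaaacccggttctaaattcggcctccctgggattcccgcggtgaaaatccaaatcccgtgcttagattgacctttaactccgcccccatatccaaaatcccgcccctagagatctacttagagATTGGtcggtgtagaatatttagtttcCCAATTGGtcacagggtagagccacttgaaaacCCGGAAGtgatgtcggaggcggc
Gar1: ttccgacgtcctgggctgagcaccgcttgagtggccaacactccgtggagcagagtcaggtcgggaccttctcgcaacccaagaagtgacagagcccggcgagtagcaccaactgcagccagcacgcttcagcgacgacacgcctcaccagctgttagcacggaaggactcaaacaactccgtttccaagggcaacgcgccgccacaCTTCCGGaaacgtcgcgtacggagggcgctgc
Rrp9 held 2 CCAAT matches and Nhp2 held 3, of which 2 overlap, and 1 CCGGAAG match, while Gar1 held 1 CCGGAAG match and the Nop56 stretch none. Over the full windows of 250 bases before to 50 after the start, found for 6 of the 7 measured genes (all but Fbl), CCAAT was in 4, CCGGAAG in 2 and CACGTG in 0. Among 32851 windows of the same length in the table, 37.4% held CCAAT, 8.86% CCGGAAG and 7.15% CACGTG. These matches describe the letters only.

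Array medians lay between 164.1 and 185.95 intensity units, and log2 values correlated at 0.972 to 0.978 within groups and 0.956 to 0.978 between them. Tcof1 itself read higher in overexpressing than in wildtype arrays on its 3 probe sets, by 0.39 to 0.87 on the log2 scale, and 1 of the 3 passed, a call that was lost without overexpressed array A or C or wildtype array A or B. In knockdown over wildtype its 3 values were -0.40 to 0.06 and none passed, so a lowering of Tcof1 was not shown by these probe sets and the knockdown label is not checked by them. The set at -0.22 read lower on every knockdown array than on any wildtype array, as did 7.01% of all probe sets. In overexpressed over knockdown its sets were at 1.09, 1.03 and 0.33 (limma, adjusted p = 0.0116, 0.0137 and 0.267). Of 18 markers of sympathoadrenal neuroblastoma, 16 were measured and 15 were brighter than the median, with Th at 3685 ± 194 (SD, n = 3), Phox2a at 4163 ± 457 and Dbh at 1531 ± 231 in wildtype arrays. Ddc was the dim one. Only 1 of 8 fibroblast markers and 1 of 6 measured blood and immune markers were brighter than the median, and the pan-leukocyte marker Ptprc read 22.7 ± 8.86 in wildtype arrays. The summed intensity of the sympathoadrenal markers ran from 56370 to 61921 with overexpression, from 65313 to 68293 in wildtype and from 64866 to 70330 with knockdown, and that of the blood and immune markers from 514 to 599, 674 to 735 and 554 to 856. Of the 16 sympathoadrenal markers 4 were called lower with overexpression (Ache by -1.40, Chga by -0.75, Stmn2 by -0.38 and Uchl1 by -0.31 on the log2 scale) and 2 higher (Isl1 by 0.99 and Dbh by 0.60), beside 6.22% of all genes called lower and 5.04% called higher. The calls of Stmn2 and Uchl1 were lost without any 1 of the overexpressing arrays or wildtype array A or B, that of Stmn2 also without any 1 knockdown array, and that of Isl1 without overexpressed or wildtype array B. The fibroblast sums ran from 470.1 to 642, 523 to 670.4 and 632 to 838 in the same order. The sympathoadrenal sums were lower in overexpressing arrays than in both other groups. The blood marker sums, mostly of dim probe sets, were below those of wildtype arrays but overlapped those of knockdown arrays. These lower sums go with the changes below, and their part in them was not tested. In RNA of whole cultures, fewer cells of a type and less RNA per cell cannot be told apart.

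In cells overexpressing Tcof1, mRNAs of both snoRNP classes were higher than in wildtype cells, with the largest values at the box C/D genes Rrp9 and Nop56. The U3-specific Rrp9 rose 3.77-fold and the scaffold gene Nop56 2.43-fold, Nop58 rose 1.75-fold, Nhp2 1.61-fold, Nop10 1.40-fold and Fbl 1.37-fold, each on its brightest probe set. Gar1, at 1.19-fold, did not pass. Of the 11 member probe sets 8 were called higher and 0 lower in limma (adjusted p under 0.05 over all probe sets), beside 4.52% called higher and 5.07% called lower among all 22626. Among probe sets brighter than the median over all 9 arrays, overexpressing ones included, as all 11 were, 8.06% were called higher. By its wildtype mean alone, 179, Rrp9 was close to that median of 175.2. By gene, 6 of 7 were called higher on the brightest probe set, beside 5.04% of all genes. All 11 values lay above 0, with a median of 0.69 on the log2 scale, where the median of all probe sets was -0.02. The members were chosen with earlier results of these arrays known, so these counts describe them. Fold changes are on the log2(intensity + 16) scale, ± SE from the limma fit to all 9 arrays.

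**Figure D1:**
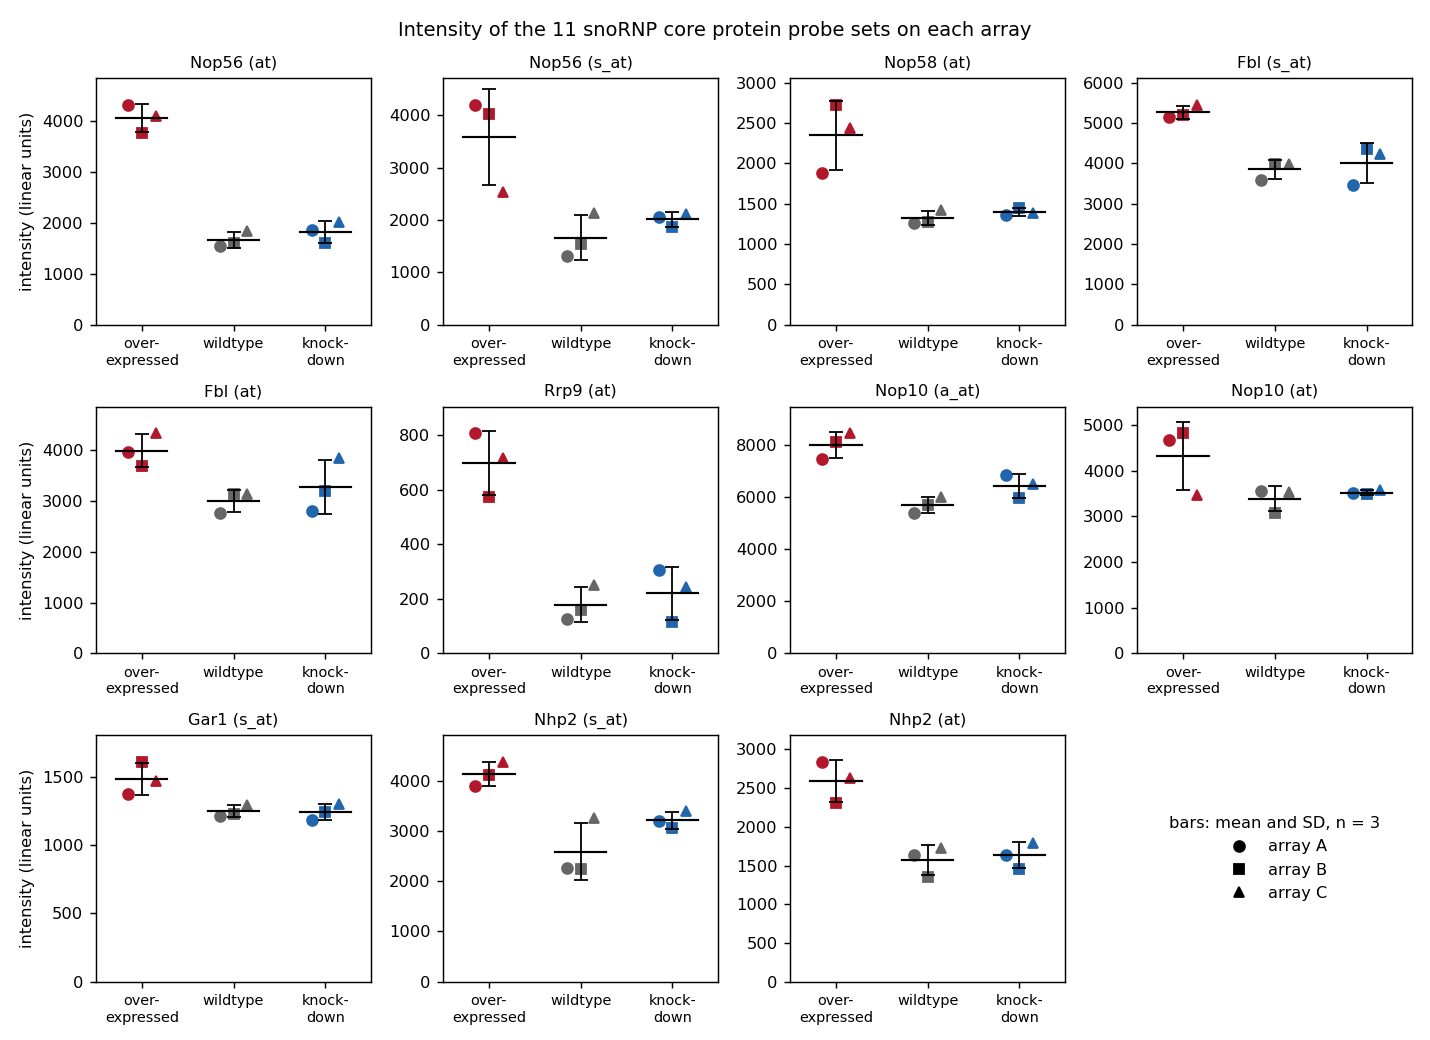
Linear intensity of each of the 11 member probe sets on each array, by group (overexpressed, wildtype, knockdown), with the mean and SD of 3 arrays as bars and the letters A to C as marker shapes. For Nop56 (at) the 3 overexpressing arrays sit at 3758 to 4312 and the other 6 at 1554 to 2013, whereas for Nop10 (at) overexpressed array C, at 3460, lies among the wildtype and knockdown arrays.

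Nop56, which with Nop58 bridges the guide RNA and fibrillarin, had the smallest p of the members. Its brightest probe set read 4312, 3758 and 4099 on overexpressing arrays A, B and C, 1554, 1594 and 1838 on wildtype arrays, and 1856, 1597 and 2013 on knockdown arrays. Every overexpressing array stood far above any other array, and wildtype and knockdown arrays overlapped. The difference from wildtype was 1.28 ± 0.11 (limma, adjusted p = 0.000206). The second Nop56 probe set, of the s_at type that can match more than 1 transcript, read 4201, 4028 and 2535 on overexpressing arrays and 1317, 1542 and 2139 on wildtype arrays. Overexpressed array C was low on this probe set but not on the first, and the groups still did not overlap. The second set gave 1.09 ± 0.20 (limma, adjusted p = 0.00786).

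Nop58, the partner of Nop56, read 1885, 2726 and 2435 on overexpressing arrays A, B and C, 1261, 1276 and 1421 on wildtype arrays and 1361, 1453 and 1381 on knockdown arrays. The overexpressing arrays were the most spread of the 3 groups (SD 427, against 88.3 in wildtype) and all stood above the other 6. The difference from wildtype was 0.81 ± 0.12 (limma, adjusted p = 0.00300).

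Fbl encodes the enzyme of the box C/D particle. On its brighter probe set, of the s_at type, overexpressing arrays read 5142, 5205 and 5452, wildtype arrays 3579, 3986 and 3984, and knockdown arrays 3455, 4347 and 4243. The overexpressing arrays were close together and above all others. The difference of 0.45 ± 0.10 passed (limma, adjusted p = 0.0168), but the call was lost without overexpressed array B (adjusted p = 0.0508) or C (0.0570), without wildtype array A (0.0553), and without the mean-variance trend (0.0772). The second Fbl probe set read 3967, 3686 and 4339 on overexpressing arrays and 2763, 3132 and 3136 on wildtype arrays, with a difference of 0.41 ± 0.12 that did not pass (limma, adjusted p = 0.0564). It did pass when the letter was the replicate block (adjusted p = 0.0325), when both Fbl probe sets were averaged (0.0214), without knockdown array A (0.0416) or C (0.0330), and under the other settings given in the closing part.

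Rrp9, the dimmest member and the one bound to U3 alone, showed the largest value. It read 807, 572 and 716 on overexpressing arrays A, B and C, 126, 159 and 251 on wildtype arrays, and 305, 114 and 242 on knockdown arrays. The overexpressing arrays were separate from the rest, while knockdown arrays spanned a wider range than wildtype arrays. The mean of 698 ± 119 (SD, n = 3) in overexpressing arrays stood against 179 ± 65.0 in wildtype, a difference of 1.91 ± 0.33 with a 95% interval of 1.19 to 2.63 (limma, adjusted p = 0.00510).

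Among the H/ACA genes, Nhp2, an RNA-binding subunit, had the largest difference. Its brightest probe set, of the s_at type, read 3904, 4106 and 4378 on overexpressing arrays, 2273, 2249 and 3251 on wildtype arrays and 3193, 3059 and 3398 on knockdown arrays. Wildtype array C read with the knockdown arrays, well above the other wildtype arrays, and the overexpressing arrays were above all of these. The difference was 0.69 ± 0.13 (limma, adjusted p = 0.00869). On the second Nhp2 probe set, overexpressing arrays read 2840, 2307 and 2626 and wildtype arrays 1640, 1353 and 1722, giving 0.72 ± 0.12 (limma, adjusted p = 0.00459). Both sets thus gave like values, and on the second wildtype array C did not stand apart.

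Nop10, the smallest subunit, which sits beside the dyskerin active site, was the brightest member. Its brighter probe set read 7473, 8117 and 8451 on overexpressing arrays, 5397, 5707 and 5996 on wildtype arrays, and 6846, 5957 and 6490 on knockdown arrays. The overexpressing group did not overlap with either other group, and the difference from wildtype was 0.49 ± 0.09 (limma, adjusted p = 0.00633). The second Nop10 probe set read 4671, 4822 and 3460 on overexpressing arrays and 3556, 3075 and 3530 on wildtype arrays. Overexpressed array C fell inside the wildtype range there, as the only overlap among the 11 probe sets. The value of 0.34 ± 0.12 did not pass (limma, adjusted p = 0.117), but did without overexpressed array C, at 0.49 (adjusted p = 0.0149), and when both Nop10 probe sets were averaged, at 0.41 (adjusted p = 0.00810).

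Gar1, which helps the particle to bind and release its substrate, was the least changed. Its only probe set, of the s_at type, read 1373, 1609 and 1469 on overexpressing arrays, 1215, 1228 and 1297 on wildtype arrays and 1181, 1242 and 1301 on knockdown arrays. The overexpressing arrays were all above the others by a small margin. The difference of 0.25 ± 0.09 had a 95% interval of 0.05 to 0.44 and did not pass (limma, adjusted p = 0.114).

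Of the 11 probe sets, 10 had no overlap between overexpressing and wildtype arrays, all higher, beside 13.3% of all probe sets. Box C/D genes had 5 of 6 probe sets called and a median of 0.95, and H/ACA genes 3 of 5 and a median of 0.49. The interval of the brightest Nop56 probe set, 1.05 to 1.52, lay above those of the brightest sets of Fbl (0.23 to 0.67), Nop10 (0.30 to 0.68), Gar1 (0.05 to 0.44) and Nhp2 (0.40 to 0.98). These intervals are not adjusted, and differences between genes were not tested. Called member sets numbered 7 to 9 with 1 array left out and 6 to 10 under the other alternatives, and the median of all 11 stayed between 0.60 and 0.79. The 10 came from averaging all probe sets of a gene, where sets of the same gene share 1 value and count separately. The share of all probe sets called in either direction, 9.59%, ran from 4.82% without wildtype array B to 10.6% without wildtype array C.

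**Figure D2:**
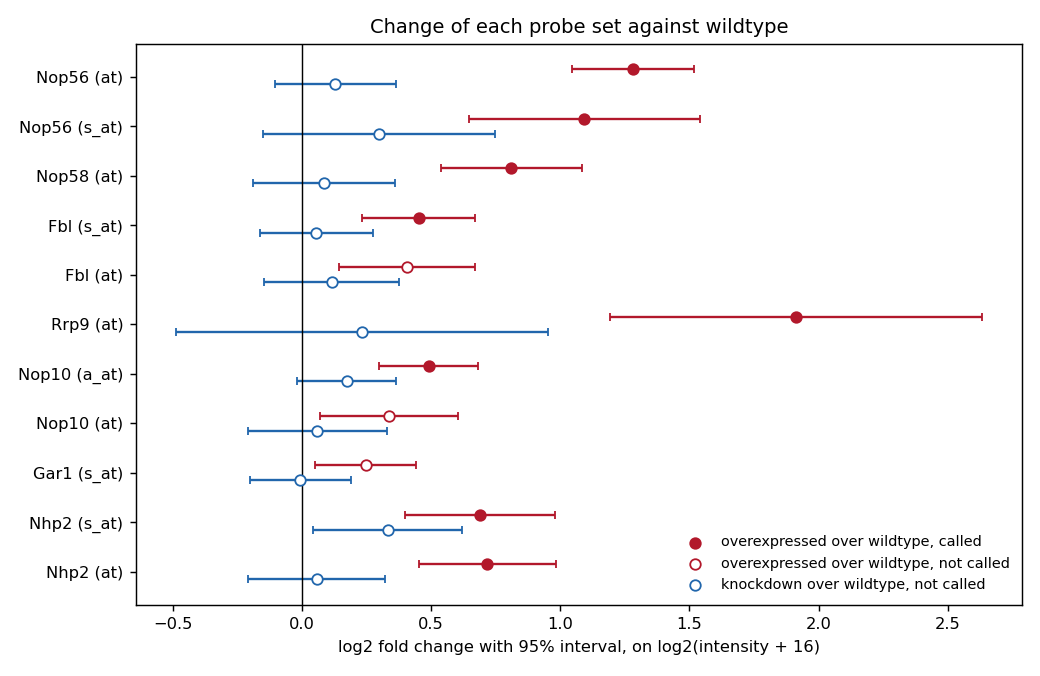
Log2 fold change against wildtype, with its 95% interval from limma, for each member probe set in overexpressing and in knockdown cells (filled points: adjusted p under 0.05). Overexpression values run from 0.25 (Gar1) to 1.91 (Rrp9), and 8 of 11 were called, whereas knockdown values run from -0.01 to 0.33 and none was called.

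In knockdown cells the same genes lay near wildtype. Of the 11 probe sets 0 passed in limma, with 1 at an unadjusted p under 0.05, beside 0.0133% called and 10.9% at an unadjusted p under 0.05 among all probe sets. No other tool was run. Values ran from -0.01 for Gar1 to 0.33 for the brightest Nhp2 set, 10 of 11 were above 0, and the median was 0.12, where that of all probe sets was 0.03. The comparison uses the same wildtype arrays as the one above. For no member did knockdown and wildtype arrays separate, beside 15.6% of all probe sets whose groups did not overlap.

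The brightest Nhp2 probe set was the 1 with an unadjusted p under 0.05, at 0.33 ± 0.13 (limma, adjusted p = 0.396). Without wildtype array C, the wildtype array that read 3251, it was 0.50 and passed (adjusted p = 0.0487), when 0.455% of all probe sets were called. The second Nhp2 probe set gave 0.06 ± 0.12 (limma, adjusted p = 0.904). The 2 Nhp2 sets thus differed in this comparison.

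Rrp9 had the widest interval in knockdown over wildtype, -0.49 to 0.95, around 0.23 ± 0.33, with adjusted p = 0.847 in limma. For the other 10 probe sets the lower bounds lay between -0.21 and 0.04 and the upper bounds between 0.19 and 0.75. Nop56, at 0.13 ± 0.11 on the brightest set, and Nop58, at 0.08 ± 0.12, had adjusted p = 0.704 and 0.855 in limma. Fbl was at 0.05 ± 0.10 and 0.12 ± 0.12 on its 2 sets, and Nop10 at 0.17 ± 0.09 and 0.06 ± 0.12. A p that misses the threshold does not show that the levels were equal.

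Between overexpressing and knockdown cells, which uses the same overexpressing arrays as the first comparison, 6 of 11 probe sets were called higher and 0 lower in limma, beside 3.43% called higher and 4.14% called lower among all probe sets. Among probe sets brighter than the median 6.21% were called higher. The 6 member sets called were both Nop56 sets, Nop58, Rrp9, the brighter Fbl set and the second Nhp2 set. Of these, 5 belong to box C/D genes and 1 to an H/ACA gene. The call of the brighter Fbl set was lost under 10 of 20 alternatives, among them leaving out any 1 of the overexpressing arrays, wildtype array B or knockdown array A or C. That of the second Nop56 set was lost under 8 of 20, among them leaving out any 1 knockdown array, wildtype array B, or either of overexpressed arrays A and B. Nop56 was 1.15 ± 0.11 higher on its brightest set (adjusted p = 0.000303), Rrp9 1.68 ± 0.33 (adjusted p = 0.0131), Nop58 0.73 ± 0.12 (adjusted p = 0.00760), and Nhp2 0.66 ± 0.12 on its second set (adjusted p = 0.00970), all by limma. The brighter Nop10 set, at 0.32 ± 0.09, did not pass (limma, adjusted p = 0.0526) but did under 5 of 20 alternatives, among them without wildtype array A (adjusted p = 0.0424). Another of the 5 was the mean of both Nop10 sets, at 0.30 (limma, adjusted p = 0.0421). The brightest Nhp2 set, at 0.36 ± 0.13, did not pass (limma, adjusted p = 0.131) but did under 3 of 20, among them without wildtype array C (adjusted p = 0.0243). Another of the 3 was the mean of both Nhp2 sets, at 0.51 (limma, adjusted p = 0.0169). Gar1 was at 0.25 ± 0.09 (limma, adjusted p = 0.114).

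Of the 11 sets, 9 had no overlap between overexpressing and knockdown arrays, beside 12.9% of all probe sets higher in this way. The number called fell to 3 without overexpressed array A, where Rrp9, the second Nop56 set and the Fbl set were lost (adjusted p = 0.0585, 0.142 and 0.0898). It was 4 without overexpressed array B, wildtype array B, or knockdown array A or C, and 4 without the mean-variance trend. In the fit with the letter as the replicate block, 5 were called. The second Nop10 set passed without overexpressed array C, at 0.43 (limma, adjusted p = 0.0324), where overexpressed array C was again the low one.

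**Figure D3:**
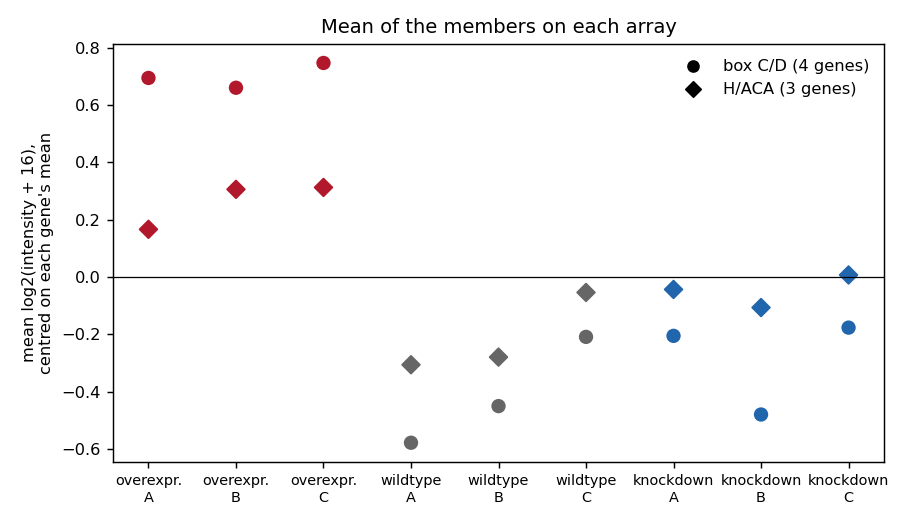
Mean of log2(intensity + 16) of the 4 measured box C/D genes (circles) and the 3 measured H/ACA genes (diamonds) on each array, centred on each gene's mean over the 9 arrays and with 1 probe set per gene. The box C/D mean lies between 0.66 and 0.75 on the overexpressing arrays and between -0.58 and -0.18 on the others, and the H/ACA mean between 0.17 and 0.31 and between -0.31 and 0.01.

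Averaged over the 7 genes, each centred on its own mean, the overexpressing arrays A, B and C stood at 0.47, 0.51 and 0.56. Wildtype arrays stood at -0.46, -0.38 and -0.14 and knockdown arrays at -0.14, -0.32 and -0.10. Wildtype array C therefore lay within the knockdown range, and wildtype arrays A and B below all knockdown arrays. No overexpressing array came near either other group. Each gene followed the mean of the other 6 over the 9 arrays with a Pearson r of 0.85 (Fbl) to 0.98 (Nop56), a description over arrays that share their groups.

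By the same measure, non-member genes were ranked by correlation with this mean profile, if their brightest probe set was brighter than the median. The 5 highest included Tmpo, which encodes a protein of the nuclear lamina, Eif6, a factor of large ribosomal subunit production, and Med8 of the Mediator complex. The others were Set, a histone chaperone, and Socs2, an inhibitor of cytokine signalling. The r of all 5 over the 9 arrays was 0.988 to 0.989. Eif6 read 5423 ± 56.2 (SD, n = 3) with overexpression, 3775 ± 247 in wildtype and 4216 ± 218 with knockdown. Socs2 read 3092 ± 116, 1345 ± 315 and 1472 ± 69.5 in the same order. The ranking among genes so alike is loose, and 2 to 5 of the 5 were again among the top 5 under other scalings and with 1 array left out, with 2 kept without overexpressed array B.

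Other genes of the snoRNP pathway gave a mixed picture, and no test set their lists against the core genes. Each gene stands here by its brightest probe set, and over all genes 5.04% were called higher and 6.22% lower in overexpressed over wildtype, with a median of -0.03. Of 18 measured genes of snoRNP assembly and trafficking, 4 rose, 1 fell and 13 did not pass, with a median of 0.19. Smn1, which encodes the SMN protein of ribonucleoprotein assembly, rose by 0.68 ± 0.11, and Nolc1, a nucleolar chaperone of both snoRNP classes related to treacle, by 0.63 ± 0.12. The ATPase genes Ruvbl2 and Ruvbl1, whose products assemble box C/D particles, rose by 0.55 ± 0.13 and 0.33 ± 0.09, and the call of Ruvbl1 was lost without any 1 array other than wildtype array C or knockdown array B. Parn, which trims H/ACA and telomerase RNA ends, fell by 0.50 ± 0.12 on the log2 scale.

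Smn1 read 1872, 1541 and 1896 on overexpressing and 1026, 1144 and 1111 on wildtype arrays, without overlap. Naf1, the H/ACA assembly factor that Gar1 replaces, did not pass against wildtype, at 0.30 ± 0.12 in overexpressing and -0.34 ± 0.12 in knockdown over wildtype (limma, adjusted p = 0.144 and 0.332). In overexpressed over knockdown Naf1 was called higher, at 0.65 ± 0.12 (limma, adjusted p = 0.00974). The count of 4 was 2 without overexpressed array B or C or wildtype array A. The call of Parn was lost without overexpressed array A or C or wildtype array A or B, and that of Nolc1 when its 3 probe sets were averaged (adjusted p = 0.1005). The second Parn set, at -0.38 ± 0.13, did not pass (limma, adjusted p = 0.0889).

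Of 31 measured U3 partners and other proteins of the small subunit processome, the complex in which U3 and Rrp9 act, 5 rose, 0 fell and 26 did not pass, with a median of 0.18. Mphosph10 and Imp4, direct partners of U3, rose by 0.58 ± 0.09 and 0.44 ± 0.10, Utp20 by 0.61 ± 0.15, the GTPase gene Bms1 by 0.55 ± 0.14 and Wdr43 by 0.30 ± 0.08. The call of Wdr43 was lost without any 1 array other than overexpressed array A, and in the fit with the letter as the replicate block (adjusted p = 0.0632). Mphosph10 read 1205, 1158 and 1171 on overexpressing, 730.0, 784 and 830 on wildtype and 775, 786 and 739 on knockdown arrays. Imp3, the third of these U3 partners, was at 0.12 ± 0.11 and did not pass. The count was 1 or 2 without any 1 of the overexpressing arrays or without wildtype array A or B. A dim second probe set of Mphosph10 (0.16 ± 0.23) and of Imp4 (0.11 ± 0.25) did not pass. The second Wdr43 set, of the s_at type, was called higher at 0.72 ± 0.15 (limma, adjusted p = 0.0120).

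Of 17 protein-only pseudouridine synthases and ribosomal RNA methyltransferases, enzymes that work without a guide RNA, 4 rose, 1 fell and 12 did not pass, with a median of 0.24. The cytosine methyltransferase gene Nop2 rose by 0.49 ± 0.11, the adenine methyltransferase gene Rrp8 by 0.78 ± 0.19, the pseudouridine synthase gene Pus7 by 0.72 ± 0.17 and Ftsj3 by 0.64 ± 0.16, while the mitochondrial Mrm1 fell by 0.65 ± 0.17 on the log2 scale. The count of 4 that rose was 0 to 2 without any 1 of the overexpressing arrays or without wildtype array A or B. The call of Mrm1 was lost in each of these cases too, and without knockdown array A.

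snoRNA host genes carry the guide RNAs in their introns. Of 14 measured on their brightest sets, 0 were called higher, 1 lower and 13 neither, with a median of -0.11. An unadjusted p under 0.05 was reached by 4, beside 23% of all probe sets. That share includes dim probe sets, while all 14 host genes were brighter than the median. Snhg8 at -0.54 ± 0.16, Snhg6 at -0.68 ± 0.24 and Tnpo2 at -0.53 ± 0.19 did not pass (limma, adjusted p = 0.0583, 0.104 and 0.114). Gas5 read 10611, 11363 and 11453 on overexpressing arrays and 17014, 14850 and 12783 on wildtype arrays. The groups did not overlap, and the difference of -0.41 ± 0.11 passed (limma, adjusted p = 0.0351). A second bright Gas5 set was at -0.85 ± 0.11 (adjusted p = 0.00164), while the other two, dim ones, were at 0.90 ± 0.30 and 0.73 ± 0.28 and did not pass. The call of the brightest set was lost without any 1 array other than wildtype array C, without which 5 host genes were called lower. Snhg1 was at -0.43 ± 0.20 on its brightest set and did not pass, and 1 of its 4 other sets, a dim one, was called higher at 0.80 ± 0.17 (limma, adjusted p = 0.0142). Ncl, which encodes nucleolin, was at 0.05 ± 0.10 on its brightest set, while a dim Ncl set was called higher, and so was the mean of its 4 sets.

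In knockdown cells 0 of the 80 measured genes of these 4 lists were called in limma, with 14 at an unadjusted p under 0.05, beside 0.0133% and 10.9% of all probe sets. Those shares include dim probe sets, while the list genes stand by their brightest set. By list, 17 of 18, 31 of 31, 15 of 17 and 14 of 14 were brighter than the median. The list medians were -0.04 for assembly and trafficking, -0.05 for the processome, -0.09 for the protein-only enzymes and -0.21 for the host genes, where all genes had 0.04. The genes with the smallest p-values within each list were, in the order of the lists, Ruvbl2 at 0.44 ± 0.13 and Naf1, given above, Nop14 at -0.43 ± 0.10, Utp4 at -0.25 ± 0.07, Dimt1 at -0.41 ± 0.14, Rpusd4 at -0.42 ± 0.16, Snhg6 at -0.58 ± 0.24 and Snhg1 at -0.49 ± 0.20 (limma, adjusted p from 0.173 to 0.417). Without wildtype array A, which read high on both, Snhg6 was at -0.27 and Snhg1 at -0.21, and without wildtype array C Snhg1 was at -0.74. In overexpressed over knockdown, 3, 5, 4 and 0 genes of the lists, in the same order, were called higher and 0 lower, beside 3.57% and 5.25% of all genes. Of the genes named for knockdown, Naf1, Utp4 (0.50 ± 0.07) and Dimt1 (0.83 ± 0.14) were among them and the others were not.

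**Figure D4:**
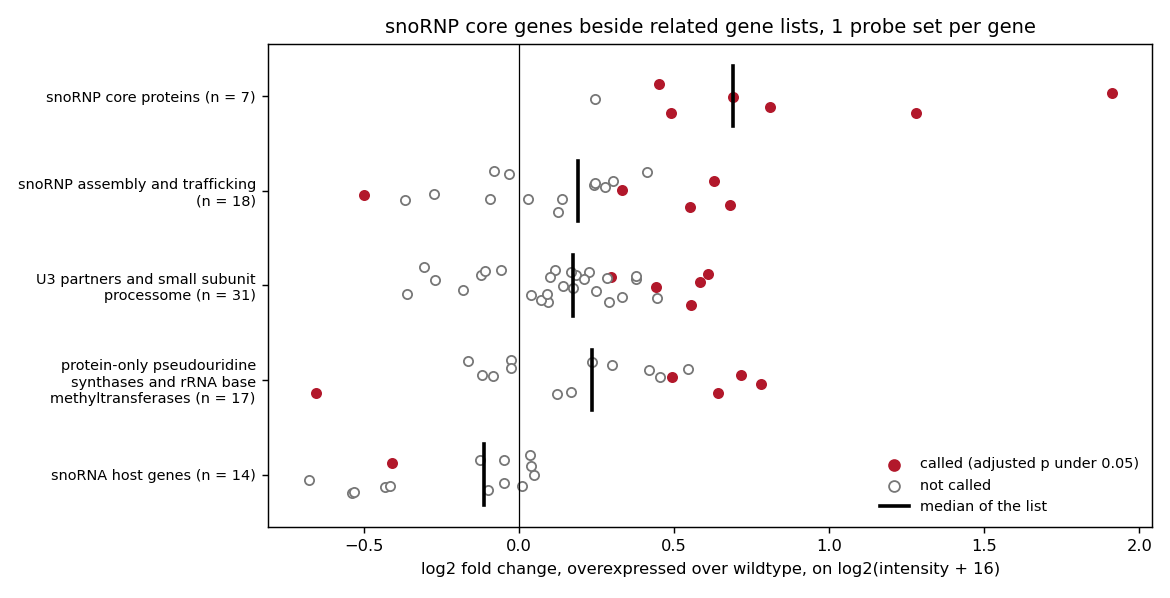
Log2 fold change in overexpressed over wildtype for the 7 core genes and 4 related lists, 1 probe set per gene, with filled points for genes at an adjusted p under 0.05 and a black bar at each list's median. The core genes have 6 of 7 called and a median of 0.69, against medians of 0.19, 0.18, 0.24 and -0.11 for the lists of 18, 31, 17 and 14 genes.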

How the data were processed

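Each array comes as 1 intensity per probe set, on a linear scale, as the authors deposited it, with probe set names of the Affymetrix kind. Their software, background correction and scaling are unstated in these sources. A mean trimmed by 2% at each end came to 500.18 to 500.2 on all arrays, so the intensities share a level, and they were used unscaled because array medians differed by 1.13 times, under the limit of 1.2. No detection calls were used here. Of 22690 probe sets 64 controls were left out.

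The analysis used log2(intensity + 16), on which differences of dim probe sets come out too small. All 9 arrays entered 1 model with a mean per group in limma 3.58.1 (lmFit, then eBayes with trend; R 4.3.3), and p-values were adjusted over 22626 probe sets by Benjamini-Hochberg. The fit was tested on simulated data. The number of arrays limits the precision.

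The members and the lists were chosen with earlier results of these data known. Named were all member probe sets and Tcof1. Per list, up to 4 genes with the smallest p in overexpressed over wildtype were named, and up to 2 in knockdown over wildtype. The 5 genes most like the members, of those brighter than the median, were named too. Ruvbl1, Wdr43, Mrm1, Imp3, Ncl, the markers and the second probe sets of list genes were named after their values were seen. Letters were not used as pairs, because they are not stated to pair arrays. Between groups, deviations from group means correlated at -0.01 to 0.10 for arrays with the same letter and at -0.12 to 0.10 for different letters. These ranges do not settle whether the arrays were paired. Promoter sequences and gene positions are RefSeq's, build GRCm38.p6. No build is named for the array.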

Additional observations from a re-analysis of the deposited data

How the results depend on the processing

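The values of the members, Tcof1, the named genes of the 4 lists and the called sympathoadrenal markers were recomputed under 20 alternatives, of which 9 leave out 1 array. For list genes named in 1 comparison this was done in that comparison. The other markers, second probe sets of list genes and values of list genes in overexpressed over knockdown were not recomputed. Where all probe sets of a gene were averaged, that average was counted for each of its probe sets, here and below. In overexpressed over wildtype all 220 member values kept their direction, and 204 kept their side of the threshold, with 6 calls lost and 10 gained. Member sets called ranged from 7 to 9 with 1 array left out and were 9 with the letter as the replicate block, which was not taken as a pairing. The block ended the call of the second Nop56 set in overexpressed over knockdown (adjusted p = 0.0695, 5 sets called) and of Ftsj3 in overexpressed over wildtype (0.0547) and Wdr43 (0.0632), made those of the second Fbl set and of Snhg6, and changed no other call of the recomputed genes. The second Fbl set passed with quantile normalization, array weights, dim probe sets left out or only both compared groups in the fit. In overexpressed over knockdown, 191 of 220 kept their side, 19 calls were lost, 10 gained and 0 changed direction, with 3 to 7 sets called with 1 array left out. In knockdown over wildtype that count was 0 to 1, and 9 values changed sign. Among these was Rrp9, at 0.23 in the main fit and -0.04 without knockdown array A. With 1 array left out, the brighter Fbl set ran from -0.006 to 0.159, the second Fbl set from -0.0057 to 0.223, Rrp9 from -0.038 to 0.616, the second Nop10 set from -0.0085 to 0.096, Gar1 from -0.041 to 0.029, the second Nhp2 set from -0.046 to 0.134 and the brightest Tcof1 set from -0.088 to 0.130. Gar1 became 0.012 with quantile normalization, and the brightest Tcof1 set -0.0012 with array weights and -0.187 as the mean of its 3 sets. In overexpressed over wildtype, Gas5 became 0.094 as the mean of its 4 sets, and Ncl ran from -0.032 to 0.161 with 1 array left out. The cause of these moves was not tested. Without the mean-variance trend the genes called higher were 2 of assembly, 1 of the processome and 1 of the protein-only enzymes, and with a 1.5-fold limit 2 and 1 of the first 2 lists. The 1 host gene called higher under any alternative was Ncl, as the mean of its 4 sets (0.43, adjusted p = 0.0299). Host genes called lower were 3 with dim probe sets left out, 2 with array weights or the block and 0 with a common median, no trend, only the compared groups or the fold limit. Over all probe sets, scalings and other alternatives moved the median change by less than 0.1 on the log2 scale. The choice of the 5 like genes under alternatives was tried after the data were seen.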

Other observations

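Of the 14 measured snoRNA host genes, 9 had their highest value on wildtype array A, where 16.9% of the 6975 genes brighter than the median did. Snhg1, a noncoding host of several box C/D guides, read 10028, 6466 and 4786 on wildtype arrays A, B and C, against 4834 to 5152 on overexpressing and 4491 to 5139 on knockdown arrays. Snhg6 read 3390, 1893 and 1643 on wildtype arrays A, B and C, and Snhg8 2414, 1883 and 1513. Of the 7 core protein genes, 3 had their lowest value on the same wildtype array A, 2 on knockdown array A, 1 on wildtype array B and 1 on knockdown array B. The share of all genes lowest on wildtype array A was not computed.

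Ncl, the gene of the nucleolar protein nucleolin and itself a snoRNA host, was at 0.05 ± 0.10 on its brightest probe set in overexpressed over wildtype, while a dimmer set read 476 in overexpressing and 215 in wildtype arrays and was called higher at 1.11 ± 0.18 (limma, adjusted p = 0.00410). The sets of this gene therefore disagree.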
